A study of Mus musculus with 24 samples.

Results

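TH1 effector CD4 T cells were compared with the naive cells from which such cells are made, in 12 of the 24 RNA sequencing libraries of a mouse study. The comparison took every library titled effector (6) and every library titled naive (6), paired by the number in the title, and used the counts per gene as deposited. Of 23420 genes in the tables, 12584 had enough counts to be tested. All libraries came from sorted CD4 T cells of 1 genotype, OT2Nur77GFP+/-, on a C57/BL6 background. It combines the T cell receptor transgenes of the OT-II line, B6.Cg-Tg(TcraTcrb)425Cbn/J, which give most CD4 T cells a single receptor for an ovalbumin peptide, with the reporter transgene Tg(Nr4a1-EGFP/cre)820Khog on C57BL/6, in which Nr4a1 (Nur77) regulatory sequence drives EGFP and Cre. Naive cells were isolated from spleens and not stimulated, and TH1 effector cells had been differentiated in culture for 5 days. A further 6 libraries of activated naive cells, stimulated for 6 hours with a stimulus that the labels do not name, were used in the last comparison. The remaining 6 libraries, of TH1 cells stimulated again for 6 hours by macrophages carrying antigen, entered the model fit and none of the comparisons below. The 5 days in culture and the differentiation towards TH1 cannot be told apart in this design.

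A naive CD4 T cell is a small, non-dividing cell that circulates through lymphoid organs. When its receptor and costimulatory receptors are engaged in the presence of interleukin 12 and interferon gamma, the transcription factors STAT4 and T-bet direct it to the TH1 fate, whose hallmark is the release of interferon gamma. The change involves repeated division, a shift to aerobic glycolysis, and an exchange of lymph node homing receptors for receptors of inflamed tissue.

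Counts assigned to genes ranged from 18457653 to 27533319 in naive and from 20940635 to 33383234 in TH1 effector libraries, and 12901 to 13198 and 14199 to 14518 genes had at least 1 count. Over these 12 libraries 91.1% of the variance lay on the first principal component, which separated the groups, and the second, with 2.13%, had TH1 effector library 5 at one end. All 7 CD4 T cell markers on the list stood above 1 CPM (counts divided by an effective library size) in both groups. Markers of other cells moved too. The summed level of 13 macrophage markers was 8.02 to 12.6 CPM in naive and 3.63 to 5.2 CPM in TH1 effector libraries, lower through Cd68 (5.65 to 2.32 CPM), Itgam (3.44 to 0.576 CPM) and Cd163 (1.04 to 0.0754 CPM), while Mrc1 (0.0232 to 0.862 CPM) and Cd14 (no counts to 0.416 CPM) were higher. Marco, Fcgr1, C1qa and C1qb had no counts in either group, and Csf1r and C1qc had 8 and 1 over the naive libraries and none in TH1 effector libraries. The 12 CD8 and natural killer cell markers summed to 28.6 to 34.6 CPM against 14.3 to 30.6 CPM, lower through Cd8b1 (26.3 to 4.67 CPM), whereas the natural killer cell markers Klrd1 (4.23 to 11 CPM), Klrc1 (0.00851 to 2.28 CPM), Klre1 (0.0144 to 0.961 CPM) and Klrc2 (no counts to 0.418 CPM) were higher. Cd8a was low in both groups (0.84 to 0.369 CPM). Klrb1c had 3 counts in each group, Ncr1 and Klra1 had 0 in naive and 1 in TH1 effector libraries, and Klra7 had 0 and 28. Klra4 and Klra8 had no counts in either group. The 9 B cell markers summed to 1.1 to 4.27 CPM against 5.3 to 23.8 CPM, highest in TH1 effector libraries 3 and 2, and the 8 dendritic cell markers to 0.235 to 0.516 CPM against 1.51 to 3.6 CPM. Neutrophil markers summed to 0.0342 to 0.332 CPM against 10.6 to 30.5 CPM, all but a little of it Cxcr2 (14.8 ± 4.4 CPM in TH1 effector libraries) and Mmp9, whereas S100a8, S100a9, Camp and Retnlg had no counts there. In bulk RNA, fewer cells of a type and less RNA per cell cannot be told apart. Whether the 6 libraries of a group stem from different animals or cultures is not stated, so p-values reflect the spread among the libraries as sequenced. That spread was estimated over all 24 libraries, including activated naive cells and TH1 cells stimulated again.

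The transcriptome of TH1 effector cells differed from that of naive cells across most of the genes measured. Of 12584 genes, 5645 (44.9%) were higher and 5101 (40.5%) lower in TH1 effector libraries at an adjusted p under 0.05, 85.4% in all. At least a 2-fold difference was found for 3174 higher (25.2%) and 2062 lower genes (16.4%). For 4637 genes (36.8%) all 6 TH1 effector libraries lay above all 6 naive libraries, for 4045 (32.1%) all lay below, and 10168 genes (80.8%) had the same direction in all 6 pairs. The median log2 fold change of all tested genes was 0.0576. By the flow cell in their file names, numbers 1 to 3 and 4 to 6 were sequenced in separate runs. Numbers 1 to 3 gave 5595 higher and 4834 lower genes and numbers 4 to 6 gave 5136 and 4540. With so large a share of genes called, counts of members below are read against these percentages. Levels are given as the lowest to the highest library with the median, or as mean ± SD over 6 libraries, in CPM, and a fold change compares TH1 effector with naive libraries. Where values of 1 gene are written as a change they are the group means, naive first.

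**Figure D1:**
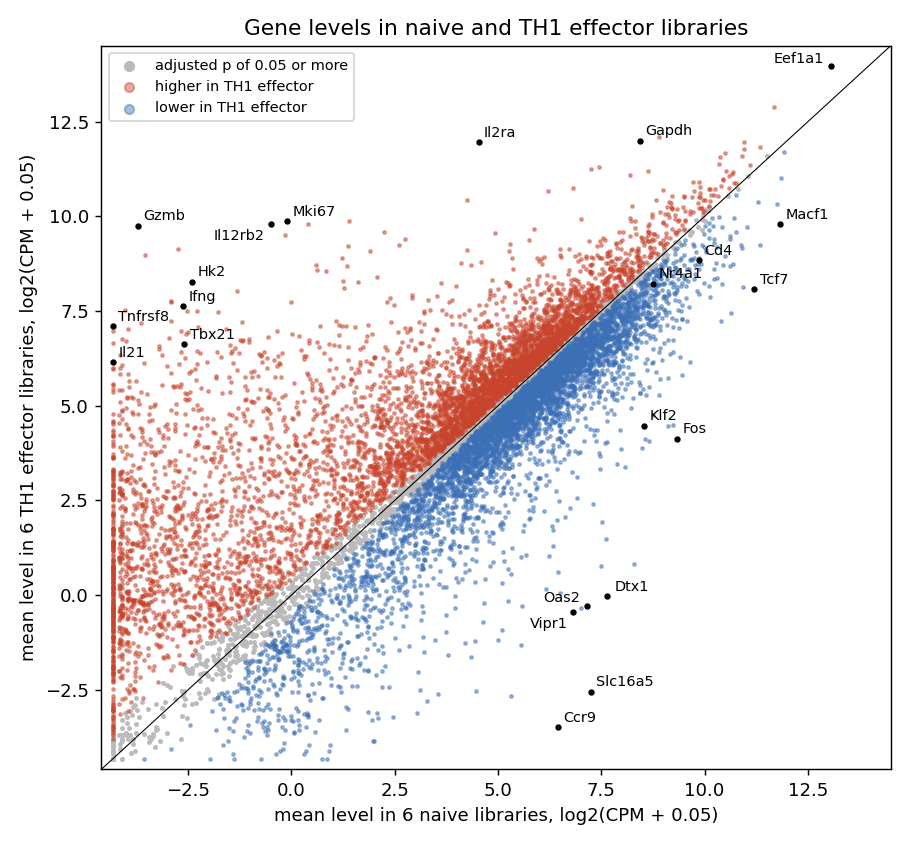
Mean level of each of 12584 tested genes in 6 naive libraries (horizontal axis) and 6 TH1 effector libraries (vertical axis), both as log2(CPM + 0.05), with red points for genes higher in TH1 effector, blue points for genes lower and grey points for genes that did not pass the test. Gzmb, Tnfrsf8 and Il21 lie at or near the left edge, high above the diagonal line of equal levels, Ccr9 and Slc16a5 lie low on the right, and Nr4a1 lies close to the line.

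The genes with the largest rises had few or no counts in naive libraries. Tnfrsf8, which encodes the receptor CD30 (mm10 chromosome 4, 145267137 to 145315164), had no counts in any naive library and between 70.5 and 178 CPM (median 147) in TH1 effector libraries, at least 6660-fold higher than 3 counts over the 6 naive libraries would give (adjusted p = 2.45e-18). Batf3, an AP-1 family transcription factor gene (chromosome 1, 191097847 to 191108945), likewise went from no counts to between 102 and 146 CPM (median 127), at least 6150-fold (adjusted p = 7.65e-16). Gzmb, which encodes the protease granzyme B of cytotoxic granules (chromosome 14, 56258838 to 56262260), had between 0 and 0.0712 CPM (median 0.0184) in naive and between 763 and 968 CPM (median 862) in TH1 effector libraries (log2 fold change 14.78, SE 0.43, adjusted p = 1.96e-13). In each of these 3 genes every TH1 effector library lay far above every naive library. The genes of this paragraph were picked among those without overlap, so a separation of the groups was set by the choice. Among the other genes with the largest rises, Il21 (at least 3440-fold) encodes a cytokine that acts on B cells and T cells, Vldlr (at least 2270-fold) a lipoprotein receptor, and Atf3 (at least 2320-fold) a stress-induced transcription factor. Nek6, a kinase gene of mitosis, was at least 3100-fold, Onecut2, a transcription factor gene, at least 3040-fold, and Ermn, a cytoskeletal gene best known from myelin-forming cells, at least 4890-fold higher. The metallothionein gene Mt1 and the gene 2810417H13Rik (Pclaf, a partner of the replication clamp) had 1 and 2 counts over the naive libraries, and their ratios were 16000 (95% interval 2880 to 633000) and 13200 (95% interval 3660 to 109000). Gp49a (Lilr4b, an inhibitory receptor of immune cells) went from 0.0355 to 504 CPM. Onecut2 was the least even of them, at 17.6, 32.8, 47.4, 52.4, 113 and 110.5 CPM in TH1 effector libraries 1 to 6.

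The genes with the largest falls included a chemokine receptor gene, transporter and channel genes and interferon-inducible genes. Ccr9, the receptor for the gut and thymus chemokine CCL25 (chromosome 9, 123678439 to 123784330), had between 72.8 and 106 CPM (median 85.8) in naive and between 0 and 0.0884 CPM (median 0.0367) in TH1 effector libraries (log2 fold change -11.07, SE 0.27, adjusted p = 1.04e-20). Slc16a5, a transporter gene of the monocarboxylate family, had between 130 and 189 CPM (median 136) against between 0.0443 and 0.173 CPM (median 0.135) (log2 fold change -10.18, SE 0.22, adjusted p = 1.07e-17). The groups were far apart in both genes, which were likewise picked among genes without overlap, so that their separation was set by the choice. The 6 TH1 effector libraries together held 6 counts of Ccr9 and 21 of Slc16a5. Dtx1, a ubiquitin ligase gene of the Notch pathway, fell 215-fold from between 161.7 and 239.4 CPM (median 195), and Vipr1, the receptor for vasoactive intestinal peptide, fell 164.6-fold from between 82.3 and 128 CPM (median 120.2). Kcna2, a potassium channel gene, went from 39.6 to 0.109 CPM, Ampd1, an AMP deaminase gene, from 22.1 to 0.123 CPM, and St8sia6, a sialyltransferase gene, from 47.4 to 0.348 CPM. The interferon-inducible genes Pydc3 and Pydc4 (Ifi208 and Ifi213), which share sequence with each other and with other family members, went from 312 to 1.72 CPM and 129 to 0.736 CPM.

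As shares of the library rather than levels per length, the largest gains were those of 2 translation factors, the interleukin 2 receptor alpha chain and 2 glycolytic enzymes. Eef1a1 and Eef2, the elongation factors of translation, rose from 8590 ± 390.5 to 15980 ± 1059 CPM and from 3288 ± 268 to 7559 ± 475 CPM. Il2ra, the high-affinity chain of the interleukin 2 receptor (chromosome 2, 11642807 to 11693193), had between 17.1 and 27 CPM (median 23.4) in naive and between 3689 and 4395 CPM (median 3947) in TH1 effector libraries (log2 fold change 7.44, SE 0.0766, adjusted p = 3.78e-25). Pkm and Gapdh, both enzymes of glycolysis, rose from 479 to 4366 CPM and 347 to 4099 CPM. The largest losses were those of Macf1, a linker of actin and microtubules (3646 to 890.3 CPM), Tcf7, the gene of the T cell factor TCF-1 (2355 to 269.6 CPM), the RNA helicase gene Ddx5 (3457 to 1295 CPM) and Hmha1 (Arhgap45, 2598 to 601 CPM). Dgka, a diacylglycerol kinase gene that limits receptor signalling, was the last of these at 1964 to 281 CPM.

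**Figure D2:**
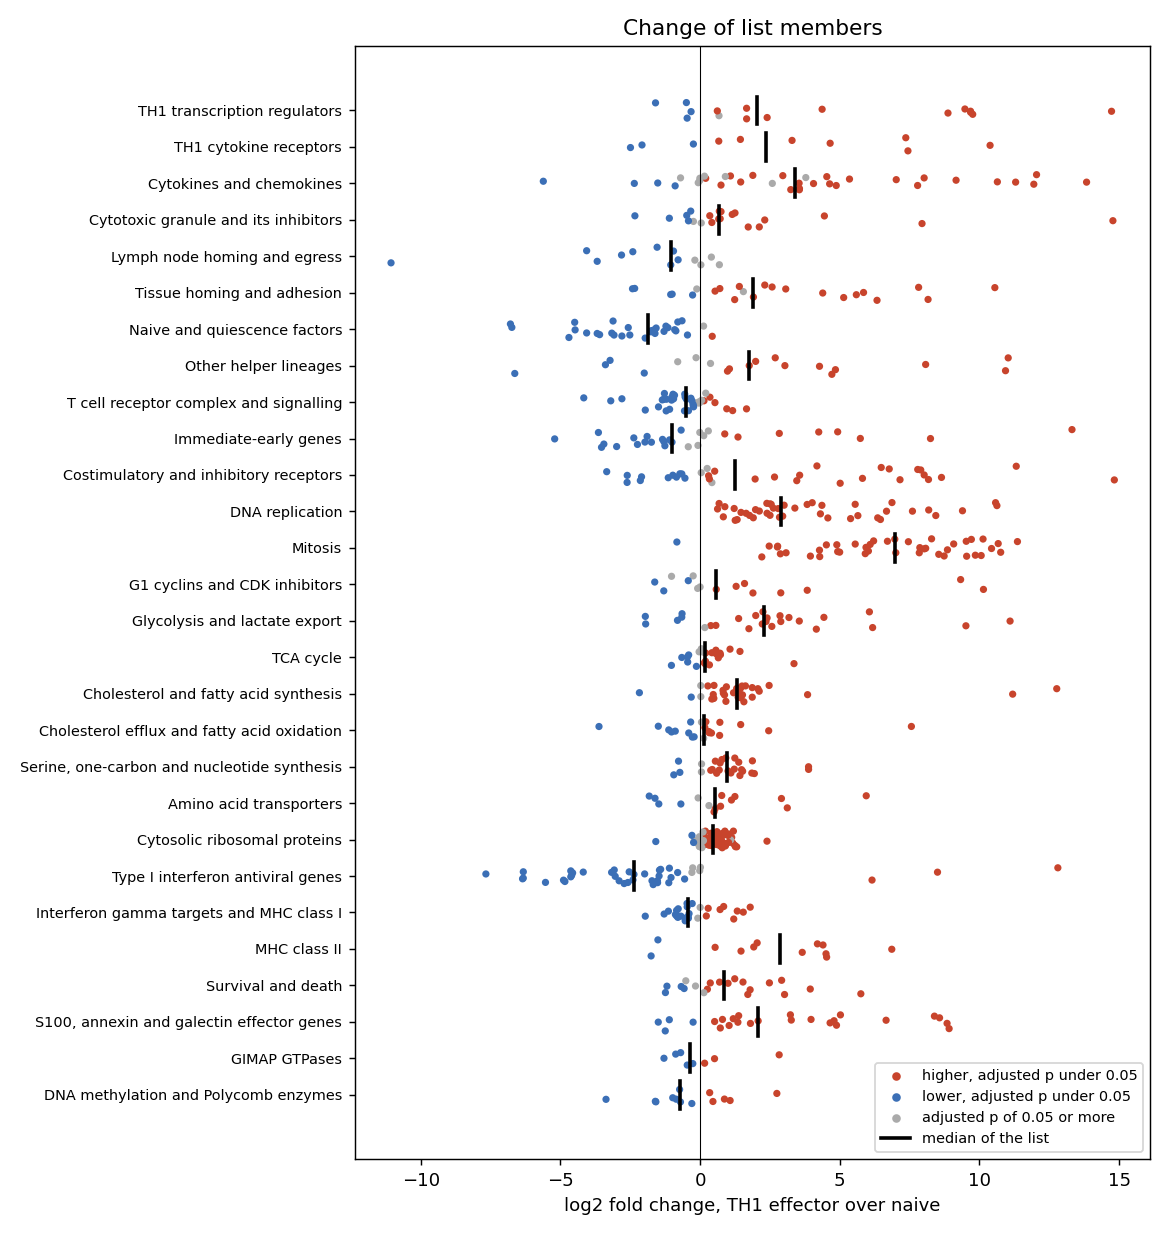
Log2 fold change of TH1 effector over naive libraries for each tested member of 28 gene lists, one point per gene, red if higher and blue if lower at an adjusted p under 0.05 and grey otherwise, with the black bar at the median of the list. Replication and mitosis genes lie almost wholly to the right of 0, naive and quiescence factors and antiviral interferon-response genes mostly to the left, and cytokine, receptor and lineage genes spread over both sides.

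Most transcription regulators of the TH1 fate were higher in TH1 effector cells, whereas Stat4, Irf1 and Ikzf3 were among those that were lower. Of 16 regulator genes tested, 11 rose, 4 fell and 1 did not pass, with a median log2 fold change of 2.03 against 0.0576 over all genes. The 1 not passing was Eomes (adjusted p = 0.179), which was higher when only naive and TH1 effector libraries were fitted (log2 fold change 0.69, adjusted p = 0.0297). Tbx21, which encodes T-bet (chromosome 11, 97098071 to 97115331), had between 0.048 and 0.205 CPM (median 0.0838) in naive and between 83.1 and 111 CPM (median 101) in TH1 effector libraries (log2 fold change 9.68, SE 0.32, adjusted p = 4.49e-20). The lowest TH1 effector library thus stood far above the highest naive library. Hlx, a homeobox gene that acts with T-bet, went from between 0 and 0.051 CPM (median 0.0178) to between 14.1 and 23.4 CPM (median 17.6) (adjusted p = 4.28e-18), and Twist1, a repressor that limits TH1 cytokines, from no counts to 2.21 ± 0.52 CPM, at least 108-fold. Bhlhe40, a repressor known to hold down Il10, rose 823-fold from 0.843 to 722 CPM, and Zeb2, a repressor that acts downstream of T-bet, from 0.0256 to 27.4 CPM. Smaller rises were measured for Prdm1 (Blimp-1, 5.28-fold), Runx3, a partner of T-bet (3.17-fold), and Irf8 (9.12 to 182 CPM). Stat4, the transducer of the interleukin 12 signal, had between 128 and 162.3 CPM (median 144) in naive and between 102 and 132 CPM (median 116) in TH1 effector libraries, so that the groups overlapped, and was lower (log2 fold change -0.32, SE 0.0746, adjusted p = 0.00845). Its call was lost when only numbers 4 to 6 were used (adjusted p = 0.133). Irf1, an interferon-induced transcription factor, was lower with overlapping groups (log2 fold change -0.49, adjusted p = 0.00522), a call lost in numbers 4 to 6 alone, and Ikzf3 (Aiolos) fell by 1.60 on the log2 scale.

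The cytokine receptor chains that mark TH1 commitment rose, and Ifngr2, Il27ra and Il2rg fell. Of 10 receptor genes, 7 rose and 3 fell, with a median of 2.37. Il12rb2, the inducible chain of the interleukin 12 receptor (chromosome 6, 67291318 to 67376188), had between 0.392 and 0.959 CPM (median 0.636) in naive and between 608 and 1193 CPM (median 858) in TH1 effector libraries (log2 fold change 10.38, SE 0.31, adjusted p = 2.5e-19), again without any overlap. Its partner Il12rb1 rose 9.79-fold from 18 ± 6.03 to 173 ± 29.1 CPM. Il2rb, the signalling chain shared by the receptors of interleukins 2 and 15, rose 164.8-fold from 4.69 to 764 CPM. Of the interleukin 18 receptor, the accessory chain Il18rap rose from between 1.34 and 2.02 CPM (median 1.6) to between 28.2 and 52.2 CPM (median 42.4), whereas the binding chain Il18r1 was present before, at between 109.5 and 183 CPM (median 131), and reached between 160.2 and 291 CPM (median 223) with overlapping groups (log2 fold change 0.67, adjusted p = 0.00119). The interferon gamma receptor split, as the binding chain Ifngr1 rose 2.72-fold from 173 to 483 CPM and the signalling chain Ifngr2 fell 5.63-fold from 80.5 to 15.6 CPM. Il27ra, the interleukin 27 receptor, fell 4.23-fold, and Il2rg, the common gamma chain, was slightly lower (729.9 to 622 CPM, adjusted p = 0.00184) with overlapping groups. The Il18r1 call was lost in numbers 1 to 3 alone and the Il2rg call in numbers 4 to 6 alone.

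Most cytokine genes were higher in TH1 effector cells, among them Ifng, Il21 and Il10, while Tnf and Il2 did not pass the test. Of 36 tested genes 24 rose, 4 fell and 8 did not pass. The median log2 fold change was 3.40, or 2.42 with the 11 genes that had no counts in a group set to their bound. Ifng had between 0 and 0.249 CPM (median 0.116) in naive and between 91.2 and 264 CPM (median 204) in TH1 effector libraries (log2 fold change 10.64, SE 0.88, adjusted p = 9.6e-15). All TH1 effector libraries were far above the naive range, with 264, 173, 91.2, 251, 200 and 208 CPM in numbers 1 to 6 and the lowest level in number 3. Il10, an anti-inflammatory cytokine that TH1 cells can also make, had no counts in naive and between 10.5 and 29.9 CPM (median 17.9) in TH1 effector libraries, at least 900-fold higher (adjusted p = 6.02e-12), and Ebi3, a subunit shared by interleukins 27 and 35, was at least 908-fold higher at 18.6 ± 2.24 CPM. Lta, lymphotoxin alpha, rose from 17.2 to 437 CPM, Lif, leukaemia inhibitory factor, from 1.49 to 380.3 CPM, Csf1, the macrophage growth factor, from 1.57 to 47.4 CPM, and Il24, a cytokine of the interleukin 10 family, had 2 counts in naive libraries against 45.3 ± 12.5 CPM, which gives a ratio of 3280 (95% interval 908 to 27100). Tnf, the main tumour necrosis factor, overlapped between the groups, with between 27 and 32.1 CPM (median 28.9) in naive and between 29.1 and 36.2 CPM (median 32.2) in TH1 effector libraries (log2 fold change 0.16, adjusted p = 0.352), and so did Ltb, lymphotoxin beta, with between 374 and 539.5 CPM (median 439) and between 397 and 476 CPM (median 419) (adjusted p = 0.609). Il2, the T cell growth factor, had no counts in naive and 10 in all TH1 effector libraries together, at between 0 and 0.0912 CPM (median 0.0657). It did not pass with edgeR (adjusted p = 0.194) and passed with DESeq2 (log2 fold change 2.99, adjusted p = 0.00406), at counts too few to set a level. Csf2 (0.564 ± 0.312 CPM) and Il22 (0.208 ± 0.165 CPM) passed from no counts in naive libraries and remained under 1 CPM on average, the Il22 call being lost in numbers 1 to 3 alone (adjusted p = 0.0656). The genes that fell were Il17f, with 31 counts over the naive and none over the TH1 effector libraries, Il16, a CD4 ligand (515 to 100.3 CPM), Cd40lg, the ligand with which helper cells license B cells and dendritic cells (165.7 to 57.1 CPM), and Tnfsf10, the death ligand TRAIL (48.7 to 26 CPM), whose call was lost in numbers 4 to 6 alone (log2 fold change -0.90, adjusted p = 0.157).

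**Figure D3:**
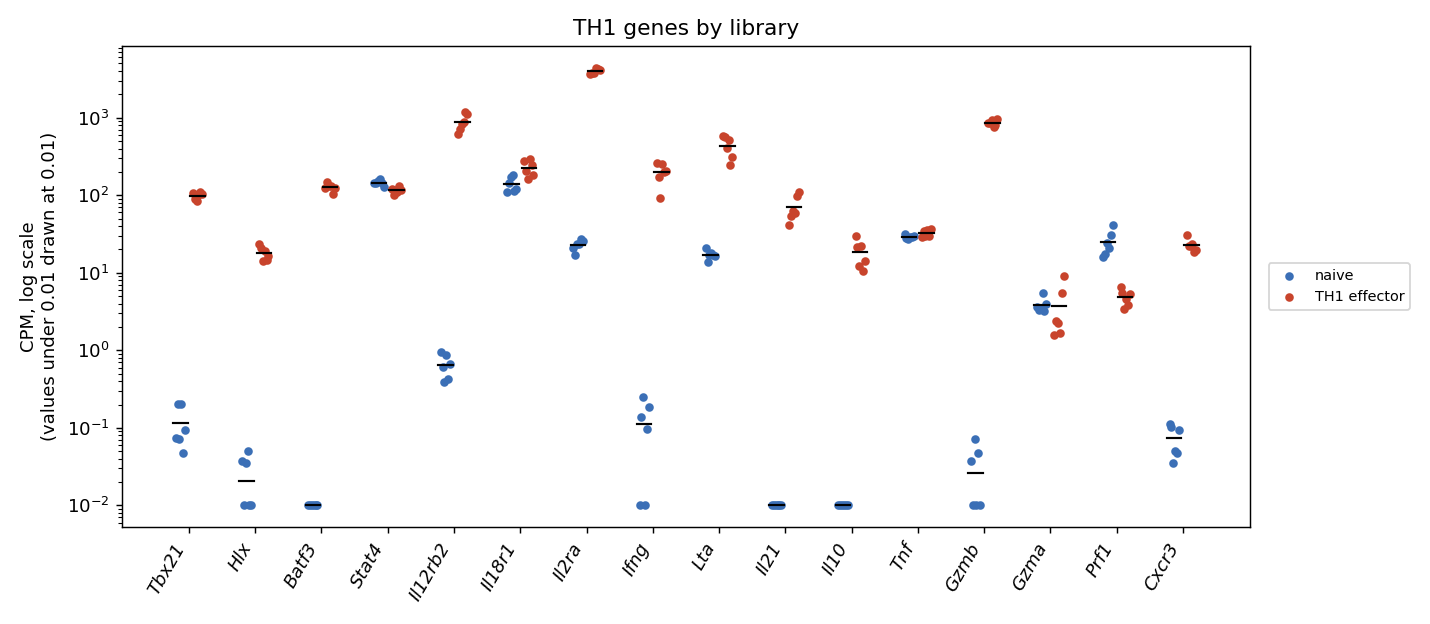
Level of 16 TH1 genes in each of 6 naive (blue) and 6 TH1 effector libraries (red), in CPM on a log axis, with values under 0.01 drawn at 0.01 and a black bar at each group mean. Tbx21, Hlx, Batf3, Il12rb2, Il2ra, Ifng, Il21, Il10 and Gzmb are separated by more than a factor of 10, Stat4, Il18r1, Tnf and Gzma overlap, and Prf1 is lower in TH1 effector libraries.

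The cytotoxic genes did not move as 1 unit. Of 21 genes of the granule and its inhibitors 14 rose, 5 fell and 2 did not pass, with a median of 0.69. Beside Gzmb, Nkg7, a granule membrane protein needed for degranulation, rose 246-fold from 0.442 to 108 CPM, and Stx11, a syntaxin of granule fusion, 21.9-fold from 1.58 to 34.1 CPM. Prf1, which encodes the pore former perforin, went the other way, from between 16 and 41 CPM (median 22.4) in naive to between 3.4 and 6.5 CPM (median 5) in TH1 effector libraries (log2 fold change -2.33, SE 0.29, adjusted p = 2e-07), and the groups did not overlap. Gzma, granzyme A, was low in both, at 3.58, 3.28, 3.38, 5.46, 3.22 and 3.94 CPM in naive and 1.57, 2.36, 2.25, 1.68, 5.43 and 9.06 CPM in TH1 effector libraries 1 to 6. In TH1 effector libraries 1 to 4 it lay below all naive libraries and in number 6 above them, and over all 6 it did not pass (adjusted p = 0.482), although it was lower in numbers 1 to 3 alone (log2 fold change -0.71, adjusted p = 0.022) and without numbers 5 and 6 (-1.04, 0.00161). Gzmc rose from 0.374 to 1.72 CPM, and Fasl, the death ligand, rose 1.68-fold from 8.94 to 15 CPM. Unc13d, which primes granules for fusion, fell 1.33-fold, and Serpinb9, the inhibitor of granzyme B, was lower (log2 fold change -0.48, adjusted p = 0.0359), a call lost on leaving out number 1, 2, 3 or 4 (adjusted p of 0.0694 to 0.11) and in numbers 4 to 6 alone. Some markers of CD8 and natural killer cells moved beside these genes, and their part was not tested: Cd8b1 fell from 26.3 to 4.67 CPM, and Klrd1 rose from 4.23 to 11 CPM. Cd8a was low in both groups (0.84 to 0.369 CPM), and Klrb1c had 3 counts in each.

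On the list of lymph node homing and egress, Klf2, S1pr1 and Ccr9 fell. The list is broader than its name, as Ccr9 is the gut and thymus chemokine receptor named above. Of 13 genes 0 rose, 9 fell and 4 did not pass, with a median of -1.05. Klf2, the transcription factor that drives S1pr1 in naive T cells, had between 294 and 597 CPM (median 324) in naive and between 15.5 and 31.3 CPM (median 22.3) in TH1 effector libraries (log2 fold change -4.06, SE 0.13, adjusted p = 2.32e-11). S1pr1, the receptor by which lymphocytes leave lymphoid organs, had between 539.7 and 648 CPM (median 613) and between 69.2 and 97.1 CPM (median 86.9) (log2 fold change -2.81, SE 0.0546, adjusted p = 4.97e-09). Neither gene had an overlap between the groups. Klf3 fell 12.9-fold from 247 to 20.6 CPM, S1pr4 from 143 to 49.1 CPM, and Itga6, an integrin gene, from 106 to 20.2 CPM. Ccr7, the chemokine receptor of lymph node entry, was lower in every TH1 effector library, at between 157.1 and 307 CPM (median 202) against between 344 and 422 CPM (median 388) (log2 fold change -0.95, SE 0.17, adjusted p = 0.0282). This call was lost without pairing (log2 fold change -0.88, adjusted p = 0.0641), without number 2 (-0.92, 0.0745) and without 5 and 6 (-1.225, 0.0566). It was also lost in numbers 1 to 3 alone (-1.09, 0.13) and in numbers 4 to 6 alone (-0.80, 0.222). The log2 fold change was thus negative in each of these settings. Il7r, which receives the survival cytokine interleukin 7, fell 1.73-fold from between 311 and 545 CPM (median 431) to between 204 and 286 CPM (median 242.9). Gpr183, an oxysterol receptor, and Igfbp4 did not pass (log2 fold changes 0.03 and 0.40, adjusted p = 0.809 and 0.164). Within the runs Igfbp4 was higher in numbers 1 to 3 (log2 fold change 0.84, adjusted p = 0.0386), and Gpr183 was lower in numbers 1 to 3 (-0.26, 0.0356) and higher in numbers 4 to 6 (0.33, 0.0162). Cxcr4 was lower (161.3 to 76.3 CPM, adjusted p = 0.0132), a call lost in numbers 1 to 3 alone (log2 fold change -0.16, adjusted p = 0.695), without number 5 (0.0741) and without 5 and 6 (0.207).

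**Figure D4:**
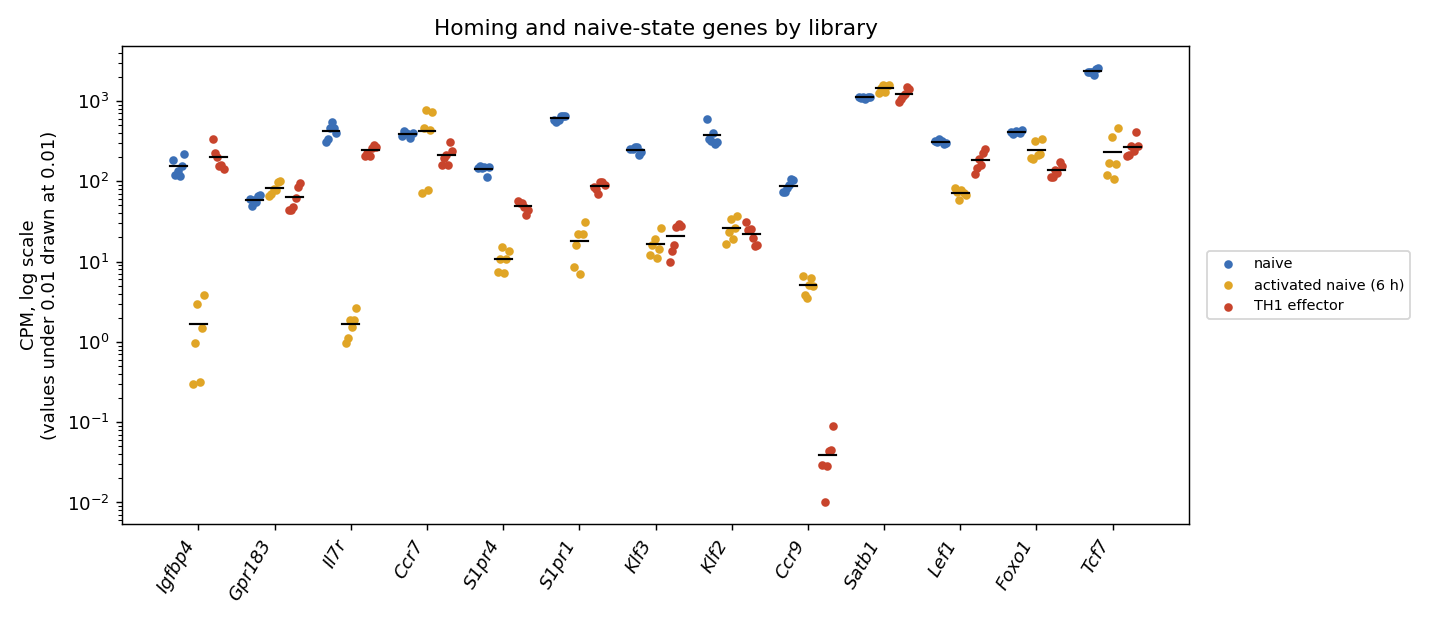
Level of 13 homing and naive-state genes in each of 6 naive (blue), 6 activated naive (amber) and 6 TH1 effector libraries (red), in CPM on a log axis with a black bar at each group mean. Igfbp4 and Il7r are far lower in activated naive than in naive or TH1 effector libraries, whereas Klf2, Klf3, S1pr1, Ccr9 and Tcf7 are low in both activated naive and TH1 effector libraries.

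Receptors of inflamed tissue rose, and the integrin genes Itga4, Itgb7 and Itgb3 fell. Of 23 genes of tissue homing and adhesion 16 rose, 5 fell and 2 did not pass, with a median of 1.91. Cxcr3, the T-bet-dependent receptor for interferon-induced chemokines, went from between 0.0356 and 0.111 CPM (median 0.0725) to between 18.5 and 30.4 CPM (median 22.2) (log2 fold change 8.16, SE 0.20, adjusted p = 6.34e-17). Ccr2 (0.194 to 15 CPM), Ccr4 (5.95 to 124 CPM) and Cxcr6 (0.261 to 15.1 CPM) rose as well. The groups did not overlap in any of these 4 genes. Cd44, the hyaluronan receptor that marks antigen-experienced T cells, rose 4.98-fold from between 25 and 34.9 CPM (median 26.4) to between 121 and 180 CPM (median 137). The integrin genes Itga4 (756 to 151 CPM), Itgb7 (874 to 421 CPM), which pair as a gut homing receptor, and Itgb3 (216 to 41.1 CPM) fell. Selplg, the ligand of P-selectin, did not pass (547 to 503 CPM, adjusted p = 0.11), but was lower without number 5 (0.0396) and without 5 and 6 (0.0192).

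Nearly all factors of the naive and quiescent state fell. Of 30 genes tested 28 fell, 1 rose and 1, Satb1, did not pass, with a median log2 fold change of -1.86, beside 40.5% lower among all genes. As a share of counts the list went from 1.62% ± 0.0323 in naive to 0.476% ± 0.0552 in TH1 effector libraries. Tcf7 (chromosome 11, 52252371 to 52283014) had between 2112 and 2594 CPM (median 2323) in naive and between 205 and 415 CPM (median 256) in TH1 effector libraries (log2 fold change -3.16, SE 0.14, adjusted p = 2.68e-09). Every TH1 effector library lay below every naive library, with number 5 the highest of the 6. Lef1, which binds the same sites as TCF-1, fell less, 1.74-fold from between 293 and 337 CPM (median 311) to between 123 and 253 CPM (median 176). Foxo1, the transcription factor that sustains Klf2 and Il7r, fell 3.06-fold, and Bach2, a repressor of effector genes, 1.57-fold. Dapl1 (8.1 to 0.0661 CPM), Fam101b (Rflnb, 181 to 1.66 CPM) and Il6ra, the interleukin 6 receptor (268 to 10.4 CPM), had the largest falls of the list. Txnip, an inhibitor of glucose uptake, fell from 1652 to 426 CPM. Id3 was lower (39.3 to 21.4 CPM) with overlapping groups, Satb1, an organiser of chromatin in T cells, was at between 1070 and 1130 CPM (median 1112) and between 972 and 1501 CPM (median 1185) (adjusted p = 0.204, but higher in numbers 4 to 6 alone at 0.0346), and Npm3, a nucleolar chaperone gene placed on the list, rose 1.35-fold.

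The list of other helper lineages held genes moving both ways, with genes known from TH17 and regulatory T cells among those that rose. Of 19 genes 12 rose, 4 fell and 3 did not pass, with a median of 1.76. Gata3, the transcription factor of TH2 cells, had between 54.4 and 66.2 CPM (median 60.9) in naive and between 4.03 and 8.45 CPM (median 7.5) in TH1 effector libraries (log2 fold change -3.22, SE 0.19, adjusted p = 1.5e-08), and Bcl6, that of follicular helper cells, between 26.8 and 36.6 CPM (median 29.4) and between 5.13 and 12.4 CPM (median 7.74) (4-fold lower, adjusted p = 7.57e-11). Both were lower in every TH1 effector library than in any naive one. Il23r, a receptor chain of TH17 cells, rose from no counts to between 4.38 and 15.5 CPM (median 10.3), at least 491-fold. The TH1 effector libraries 1 to 6 held Il23r at 4.38, 5.18, 6.66, 14, 15.5 and 14.8 CPM, lower in numbers 1 to 3 than in 4 to 6. Maf, which drives Il10 in several helper types, rose 28.8-fold from 3.1 to 89.8 CPM, and Lrrc32, the docking protein GARP for latent TGF-beta, from 2 counts in all to 37.2 ± 16.3 CPM, a ratio of 2910 (95% interval 806 to 24100). Il17rb, the receptor of interleukin 25, fell from 11.6 to 0.113 CPM. Foxp3, the factor of regulatory T cells, was at between 0.24 and 1.17 CPM (median 0.692) and between 0.177 and 0.894 CPM (median 0.336) and did not pass (adjusted p = 0.0723), but was lower when only naive and TH1 effector libraries were fitted (0.0374) or without number 3 (0.0321). Il4ra, the interleukin 4 receptor, rose 1.97-fold.

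Genes of the T cell receptor complex and its signalling mostly fell, by small amounts. Of 38 genes 26 fell, 6 rose and 6 did not pass, with a median of -0.52. Cd4, the coreceptor, had between 862 and 985 CPM (median 927) in naive and between 441 and 494 CPM (median 452) in TH1 effector libraries (log2 fold change -1.01, SE 0.0581, adjusted p = 5.46e-14), and Cd3e, a receptor chain, between 421 and 476 CPM (median 444) and between 206 and 229.8 CPM (median 221) (log2 fold change -1.02, SE 0.0212, adjusted p = 5.47e-14). The ranges did not overlap in either. Lck, the kinase that phosphorylates the receptor, fell 1.96-fold, while its successor Zap70 was at between 207 and 265 CPM (median 226) and between 208 and 256 CPM (median 222) and did not pass (log2 fold change -0.02, adjusted p = 0.713), and neither did Cd5 (169 to 175 CPM, adjusted p = 0.482). Larger falls were measured for the TEC kinase gene Txk (178 to 10 CPM), for Tespa1, an adaptor of calcium signalling (127 to 13.7 CPM), and for Dgka, named above. Cd28, the main costimulatory receptor, rose 2.24-fold from 322 to 735 CPM, Themis, a signalling adaptor of T cell selection, 1.94-fold, and Malt1, the protease of the NF-kB branch, 3.17-fold. Ptprc (CD45) fell from 2503 to 1336 CPM and Cd2 rose 1.45-fold.

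Of the immediate-early genes, more were lower than higher in TH1 effector libraries. Of 29 genes 16 fell, 8 rose and 5 did not pass, with a median of -1.01. Their share of counts went from 0.746% ± 0.176 in naive to 0.321% ± 0.0308 in TH1 effector libraries. The mean log2 CPM of the list overlapped between the groups, at 5.11 to 5.9 in naive and 5.41 to 5.69 in TH1 effector libraries. Fos had between 395 and 864 CPM (median 694) in naive and between 7.34 and 26.9 CPM (median 17.6) in TH1 effector libraries (log2 fold change -5.21, SE 0.46, adjusted p = 9.85e-10), Jun 549 to 140.5 CPM and Fosb 198 to 16.4 CPM, all AP-1 subunits, and Zfp36, which destabilises cytokine mRNA, 703 to 56.5 CPM. Dusp1, a phosphatase of MAP kinases, went from 191 to 16.2 CPM and Junb from 1257 to 331 CPM. Nr4a1, the gene whose regulatory sequence drives the reporter, varied widely within both groups, with 801, 319, 239.2, 496, 385 and 362 CPM in naive and 132, 180.3, 153, 413, 412 and 498 CPM in TH1 effector libraries 1 to 6. The groups overlapped and the difference did not pass (log2 fold change -0.42, SE 0.44, adjusted p = 0.314), though it was lower without numbers 5 and 6 (-1.02, 0.0419). Egr1 was lower (82.9 to 44.6 CPM, adjusted p = 0.0107), a call lost in numbers 1 to 3 alone (log2 fold change -0.12, adjusted p = 0.307), without number 6 (0.0588) and without 5 and 6 (0.178). Egr2 did not pass overall (log2 fold change 0.13, adjusted p = 0.476) and took opposite signs in the runs, 0.64 in numbers 1 to 3 (adjusted p = 0.000267) and -0.48 in numbers 4 to 6 (0.032). Egr3 fell from 4.17 to 1.64 CPM. Nr4a2 rose 19-fold from 2.66 to 51.1 CPM, and Nr4a3 was higher on average (1.97 to 5.63 CPM, adjusted p = 0.0392), a call that rests on TH1 effector libraries 4 to 6, as in numbers 1 to 3 its log2 fold change was -0.13 (0.84) and without 5 and 6 it was 0.20 (0.716). Atf3, Fosl2 (7.56 to 231 CPM), Ier3 (0.309 to 17.3 CPM) and Myc, the growth regulator (7.14-fold, 65.5 to 466 CPM), rose. Cd69, an activation antigen, was at between 57.6 and 138 CPM (median 108) and between 76.7 and 114 CPM (median 96.9) (adjusted p = 0.949).

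Costimulatory and inhibitory receptors of activated cells rose, and Cd27, Cd226 and Cd200r1 fell. Of 34 genes 20 rose, 11 fell and 3 did not pass, with a median of 1.25. Beside Tnfrsf8, the TNF receptor family genes Tnfrsf9 (4-1BB, 1.45 to 421 CPM) and Tnfrsf4 (OX40, 7.52 to 244 CPM) rose. Ctla4, the inhibitory counterpart of CD28, went from between 1.42 and 3.6 CPM (median 2.35) to between 496 and 720.1 CPM (median 586) (log2 fold change 7.90, adjusted p = 5.79e-11), and Icos from between 21.6 and 28.6 CPM (median 23.6) to between 352 and 579.8 CPM (median 438) (log2 fold change 4.18, adjusted p = 5.83e-21). The inhibitory receptor genes Lag3 (0.231 to 53 CPM), Tigit (0.152 to 16.1 CPM), Havcr2 (TIM-3, 0.0379 to 3.5 CPM) and Pdcd1 (PD-1, 1.45 to 9.26 CPM) rose as well, with no overlap between groups. Klrk1, the activating receptor NKG2D, had 1 count in all naive libraries, against 29.1 ± 3.48 CPM in the TH1 effector group, a ratio of 4200 (95% interval 754 to 166000), and Cd80, better known as a ligand on antigen-presenting cells, had 3 counts and 10.2 ± 1.44 CPM. Cd27 fell 6.12-fold from 430.4 to 70.6 CPM, Cd226, an adhesion receptor that competes with TIGIT, 10.2-fold from 59.4 to 5.83 CPM, and Cd200r1 6.1-fold.

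Genes of DNA replication and mitosis rose almost without exception. All 42 replication genes tested were higher (42 of 42, median 2.90), and of 43 mitosis genes 42 rose and 1, Pttg1, fell (median 6.97), beside 44.9% higher among all genes. The share of counts went from 0.104% ± 0.0028 to 0.553% ± 0.0354 for replication and from 0.021% ± 0.000694 to 0.585% ± 0.0686 for mitosis genes. Mki67, the proliferation antigen Ki-67, had between 0.684 and 1.22 CPM (median 0.883) in naive and between 847 and 1155 CPM (median 874) in TH1 effector libraries (log2 fold change 10.06, SE 0.14, adjusted p = 1.3e-14), and Top2a, which untangles DNA, between 1.87 and 3.27 CPM (median 2.52) and between 805 and 1131 CPM (median 938) (adjusted p = 3.88e-18). The groups were far apart in both. Ccna2 and Cdk1, a cyclin and its kinase, went from 0.0832 to 149.7 CPM and 0.443 to 103 CPM, Aurkb, the kinase of chromosome alignment, from 0.0589 to 95 CPM, and Ska1, a kinetochore gene, from no counts to 12.2 ± 1.02 CPM, at least 596-fold. In replication, E2f8, Clspn, the checkpoint adaptor, and Mcm10, an initiation factor, led with 1581-fold, 1529-fold and 673-fold, while Pcna, the replication clamp, was already at between 133 and 147 CPM (median 140.5) in naive libraries and reached between 406 and 511 CPM (median 495). Pttg1, the securin gene, was lower (adjusted p = 1.54e-08). It had between 29.1 and 35.2 CPM (median 32.8) in naive and between 15.2 and 21.5 CPM (median 18.2) in TH1 effector libraries.

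Promoter sequences of 4 cell cycle genes are shown because nearly all members of both lists rose and promoters of such genes carry known elements. The CHR element binds the DREAM and MuvB complexes, often beside CCAAT boxes bound by NF-Y, and E2F sites bind the E2F family. The stretches run from 220 bases before to 30 after the annotated start (RefSeq, GRCm38.p6), 5′ to 3′ on the strand of the gene: Hmmr, a spindle gene, chr11:40733408-40733657 (minus strand), Cenpf, a centromere gene, chr1:189688057-189688306 (minus strand), Clspn chr4:126556760-126557009 (plus strand) and E2f7, a repressor of the E2F family, chr10:110745219-110745468 (plus strand). Capitals mark, on either strand, matches of CHR (TTTGAA or TTCGAA) and CCAAT in Hmmr and Cenpf, and of E2F (TTTCCCGC, TTTGGCGC or TTTCGCGC) in Clspn and E2f7.
Hmmr: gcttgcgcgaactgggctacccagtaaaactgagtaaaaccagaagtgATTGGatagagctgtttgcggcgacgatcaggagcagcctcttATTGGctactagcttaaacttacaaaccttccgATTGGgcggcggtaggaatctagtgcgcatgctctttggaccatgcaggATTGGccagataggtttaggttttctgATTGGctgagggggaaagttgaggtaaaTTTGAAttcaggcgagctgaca
Cenpf: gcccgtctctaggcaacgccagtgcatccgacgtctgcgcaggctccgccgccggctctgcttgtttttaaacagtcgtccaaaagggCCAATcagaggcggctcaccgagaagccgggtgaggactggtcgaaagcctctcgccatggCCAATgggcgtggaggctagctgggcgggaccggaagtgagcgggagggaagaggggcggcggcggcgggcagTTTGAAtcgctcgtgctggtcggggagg
Clspn: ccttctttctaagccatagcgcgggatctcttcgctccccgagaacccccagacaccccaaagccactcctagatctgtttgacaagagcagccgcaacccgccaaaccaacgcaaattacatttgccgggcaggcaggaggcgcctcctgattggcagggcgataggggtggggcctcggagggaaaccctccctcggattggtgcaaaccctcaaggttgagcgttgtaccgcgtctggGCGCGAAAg
E2f7: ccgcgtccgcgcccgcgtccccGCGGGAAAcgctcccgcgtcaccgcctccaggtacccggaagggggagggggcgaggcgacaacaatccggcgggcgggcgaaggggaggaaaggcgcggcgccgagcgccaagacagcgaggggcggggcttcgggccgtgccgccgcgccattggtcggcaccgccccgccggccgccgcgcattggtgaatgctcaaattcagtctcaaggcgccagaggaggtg
A match is a description of the letters only. Genes were picked by size of change among list members whose stretch held a CHR match (Hmmr, Cenpf) or an E2F match (Clspn, E2f7). The presence of that match was thus set by the choice.

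Hmmr held a CHR match 8 bases after the start and 5 CCAAT matches before it, and Cenpf a CHR match 2 bases after the start and 2 CCAAT matches. Over the full windows of 250 bases before to 50 after a start, CHR letters were found in 29 of 36 mitosis windows (80.6%, from 35 of 43 genes matched), against 13.9% of 11905 windows of tested genes and 19.2% of all 32851 windows. CCAAT letters were found in 28 of 36 (77.8%, against 37.7% and 37.4%). E2F letters were found in 16 of 41 replication windows (39%, from 35 of 42 genes matched), against 3.49% of windows of tested genes and 1.84% of all. Among windows of genes at least 2-fold higher these shares were 15.6% for CHR and 4.1% for E2F. Hmmr rose from between 0 and 0.153 CPM (median 0.0648) to between 66.9 and 97.1 CPM (median 78.6), Cenpf from between 0 and 0.144 CPM (median 0.124) to between 104 and 162.7 CPM (median 120.2), and E2f7 from between 0 and 0.235 CPM (median 0) to between 18.6 and 21.9 CPM (median 21.5). No library of the naive group came near the TH1 effector range in any of these genes.

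Among genes of the G1 phase, D-type cyclins and Cdk6 rose and the inhibitors moved both ways. Of 15 genes 8 rose, 3 fell and 4 did not pass, with a median of 0.58. The D-type cyclins Ccnd2 (292 to 717 CPM) and Ccnd3 (157.4 to 476 CPM) and their kinase gene Cdk6 (8.8 to 126 CPM) rose. Cdkn1a, the inhibitor p21, went from between 0.047 and 0.288 CPM (median 0.139) to between 124 and 255 CPM (median 178) (log2 fold change 10.14, SE 0.35, adjusted p = 5.87e-17), and Cdkn2c rose 7.41-fold. Cdkn1b, the inhibitor p27 that holds naive cells at rest, fell 3.08-fold from 206 ± 16.5 to 67.2 ± 8.29 CPM, and Rbl2, the pocket protein of resting cells, 1.34-fold, a call lost in numbers 4 to 6 alone (adjusted p = 0.102). The inhibitor genes named here thus moved in both directions. E2f1, the activator of S phase genes, rose 46.9-fold from 1.25 to 58.5 CPM.

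Glycolysis genes rose to several times their naive share of the library. Of 26 genes 20 rose, 5 fell and 1 did not pass (median 2.30), and the list went from 0.347% ± 0.016 of counts to 2.12% ± 0.393. Hk2, the inducible hexokinase (chromosome 6, 82725025 to 82774454), had between 0.0342 and 0.204 CPM (median 0.161) in naive and between 288 and 324 CPM (median 310.1) in TH1 effector libraries (log2 fold change 11.10, SE 0.32, adjusted p = 2.73e-23), whereas Hk1, the constitutive form, rose 2.6-fold from 183 to 479 CPM. Slc16a3, the lactate exporter MCT4, went from between 0.24 and 0.445 CPM (median 0.363) to between 134 and 376 CPM (median 271) (log2 fold change 9.52, SE 0.18, adjusted p = 1.36e-17). Its TH1 effector values were 376, 322, 288, 254, 134 and 193 CPM, lowest in numbers 5 and 6 and all far above the naive range. The glucose transporter genes Slc2a1 and Slc2a3 rose 7.27-fold and 5.27-fold, Aldoa 7.41-fold, Pgk1 21.6-fold and Ldha, which makes lactate, 5.93-fold from 394 to 2367 CPM. Tpi1 rose 72.3-fold from 18.9 to 1377 CPM, with counts that near-identical copies may share. Genes that fell were Pdk1 (692 to 179.8 CPM) and Pdk2 (15.3 to 3.97 CPM), kinases that inhibit pyruvate dehydrogenase, and Ldhb, the form that favours pyruvate (48.4 to 30.7 CPM).

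The genes of the TCA cycle were spread around their naive level. Of 26 genes 15 rose, 6 fell and 5 did not pass, with a median of 0.19, and the share of counts was 0.264% ± 0.00334 in naive and 0.308% ± 0.012 in TH1 effector libraries. Pcx, which refills the cycle from pyruvate, rose 10.3-fold from between 2.85 and 4.38 CPM (median 3.8) to between 17.1 and 61.7 CPM (median 39.9), and Sdhd, a subunit of succinate dehydrogenase, 2.1-fold. Idh2 fell 2.04-fold, Ogdh 1.57-fold and Pdhb, a subunit of pyruvate dehydrogenase, 1.36-fold. A test against a 1.5-fold change kept 4 of the higher and 1 of the lower genes.

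Genes that build cholesterol and fatty acids rose, with the desaturases in the lead. Of 35 genes 31 rose, 2 fell and 2 did not pass (median 1.32). Scd1, which desaturates stearate, had between 0 and 0.178 CPM (median 0.0495) in naive and between 149 and 258 CPM (median 223) in TH1 effector libraries (log2 fold change 11.19, SE 0.54, adjusted p = 1.42e-19), and its relative Scd2, already expressed in naive cells, between 162.2 and 196 CPM (median 174) and between 2178 and 2675 CPM (median 2562) (log2 fold change 3.85, SE 0.0604, adjusted p = 5.47e-11). In both the groups were far apart. Fads2, a desaturase of polyunsaturated fatty acids, had 1 count in all naive libraries, against 80.4 ± 10.4 CPM in the TH1 effector group, a ratio of 11900 (95% interval 2130 to 470000). Fdps, of the cholesterol branch, rose 5.54-fold, Fasn, fatty acid synthase, 2.48-fold, and Elovl6, an elongase, 3.65-fold. Acss2, which makes acetyl-CoA from acetate, fell 4.51-fold from 90.3 to 20 CPM, and Scap, the escort of the sterol-sensing factors, 1.25-fold.

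Genes of cholesterol efflux and fatty acid oxidation moved in both directions, 10 of 21 higher, 9 lower and 2 not passing (median 0.13). Abcg1, a cholesterol exporter, fell 2.18-fold from 191 to 89.1 CPM, Mylip, a ubiquitin ligase gene, 12.3-fold from 111 to 9.5 CPM, and Cpt1a, the gate of mitochondrial fatty acid entry, 2.03-fold. Acadl, an acyl-CoA dehydrogenase, rose 5.49-fold from 53.5 to 294 CPM, Etfb, which carries electrons from such enzymes, 2.74-fold, and Pparg, a lipid-sensing nuclear receptor, from between 0 and 0.107 CPM (median 0) to between 3.92 and 11.5 CPM (median 7.15). Serine, one-carbon and nucleotide synthesis genes were mostly higher, 21 of 26 with 3 lower (median 0.96). Psat1, of serine synthesis, rose 14.8-fold from 14.8 to 219.7 CPM, and Shmt1 and Shmt2, which pass serine carbon to folate, 14.8-fold and 3.66-fold. Impdh1, Dhodh and Prps2, which make nucleotides, fell 1.92-fold, 1.71-fold and 1.65-fold.

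Of 80 cytosolic ribosomal protein genes 67 rose, 3 fell and 10 did not pass (median 0.47). Together they took 7.37% ± 0.367 of counts in naive and 10.3% ± 0.985 in TH1 effector libraries. Rps27l rose most, 5.26-fold from 16.7 to 87.3 CPM, then Rps12 (2.48-fold) and Rps26 (2.4-fold). Rps27 fell 3-fold from 3.79 to 1.24 CPM, a low level for a gene of this list, without overlap. Rps29 and Rps21 were lower with overlapping groups (log2 fold changes -0.29 and -0.23), calls that were lost in numbers 1 to 3 alone. With size factors of another kind (RLE) or library size alone as the scale, 68 and 62 of the genes were higher.

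Antiviral genes of the type I interferon response mostly fell, apart from the Ifitm genes. Of 41 genes 34 fell, 3 rose and 4 did not pass, with a median of -2.37, and their share of counts went from 0.64% ± 0.061 to 0.193% ± 0.0332. Their mean log2 CPM was 5.62 to 6.09 in naive libraries and 3.56, 3.84, 4.15, 3.79, 4.53 and 4.30 in TH1 effector libraries 1 to 6. Every TH1 effector library thus lay below every naive library. Oas2, which makes the activator of RNase L, had between 116 and 166.7 CPM (median 145) in naive and between 0.443 and 1.32 CPM (median 0.643) in TH1 effector libraries (log2 fold change -7.67, SE 0.27, adjusted p = 1.56e-10). Ifit3 and Ifit1, which bind viral RNA or its partners, had between 52.6 and 105 CPM (median 89) against between 0.552 and 2.69 CPM (median 1.32) and between 81.8 and 134 CPM (median 108) against between 2.03 and 9.62 CPM (median 4.14) (adjusted p = 6.62e-08 and 1.03e-07). Irf7, the amplifier of interferon production, fell 24.8-fold from between 167.2 and 268 CPM (median 247) to between 6.39 and 16.3 CPM (median 10.4), Oasl2 80.5-fold, Isg15, a ubiquitin-like modifier, 5.81-fold and Mx1 3.96-fold, a call lost in numbers 4 to 6 alone (log2 fold change -1.69, adjusted p = 0.0773). Stat2, the transducer of type I interferon, was lower with overlapping groups (164.5 to 118 CPM, adjusted p = 0.0463), a call lost without pairing (0.0685), on leaving out number 1, 2, 3 or 4 (0.0644 to 0.174) and in numbers 4 to 6 alone (0.397). Bst2 (tetherin, 71.1 to 71.8 CPM) and Eif2ak2 (the kinase PKR, 69.4 to 71.3 CPM) did not pass (adjusted p = 0.921 and 0.962), nor did Parp9 (log2 fold change -0.27, adjusted p = 0.376) and Oas3 (-0.29, 0.408). Both were lower when only naive and TH1 effector libraries were fitted (adjusted p = 0.0358 and 0.00208), and Parp9 also without numbers 5 and 6 (0.0124). The summed level of macrophage markers was lower as well (3.63 to 5.2 against 8.02 to 12.6 CPM summed over 13 genes), and their part was not tested.

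The 3 members that rose were all interferon-induced transmembrane genes, which keep viruses from fusing with the cell. Ifitm2 had 2 counts in all naive libraries, against between 103 and 145 CPM (median 137) in the TH1 effector group, a ratio of 9630 (95% interval 2670 to 79600). Ifitm3 had between 1.78 and 2.5 CPM (median 2.03) and between 93 and 227 CPM (median 155) (log2 fold change 6.16, SE 0.24, adjusted p = 4.74e-15), and Ifitm1 between 0 and 0.356 CPM (median 0.0939) and between 13.6 and 118 CPM (median 56.2) (log2 fold change 8.50, SE 0.84, adjusted p = 1.71e-12). No groups overlapped, and Ifitm1 ranged widely over TH1 effector libraries 1 to 6, at 13.6, 49.3, 79.2, 27.7, 63.2 and 118 CPM. The sequences of these genes are alike, so that reads may be shared between them.

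**Figure D5:**
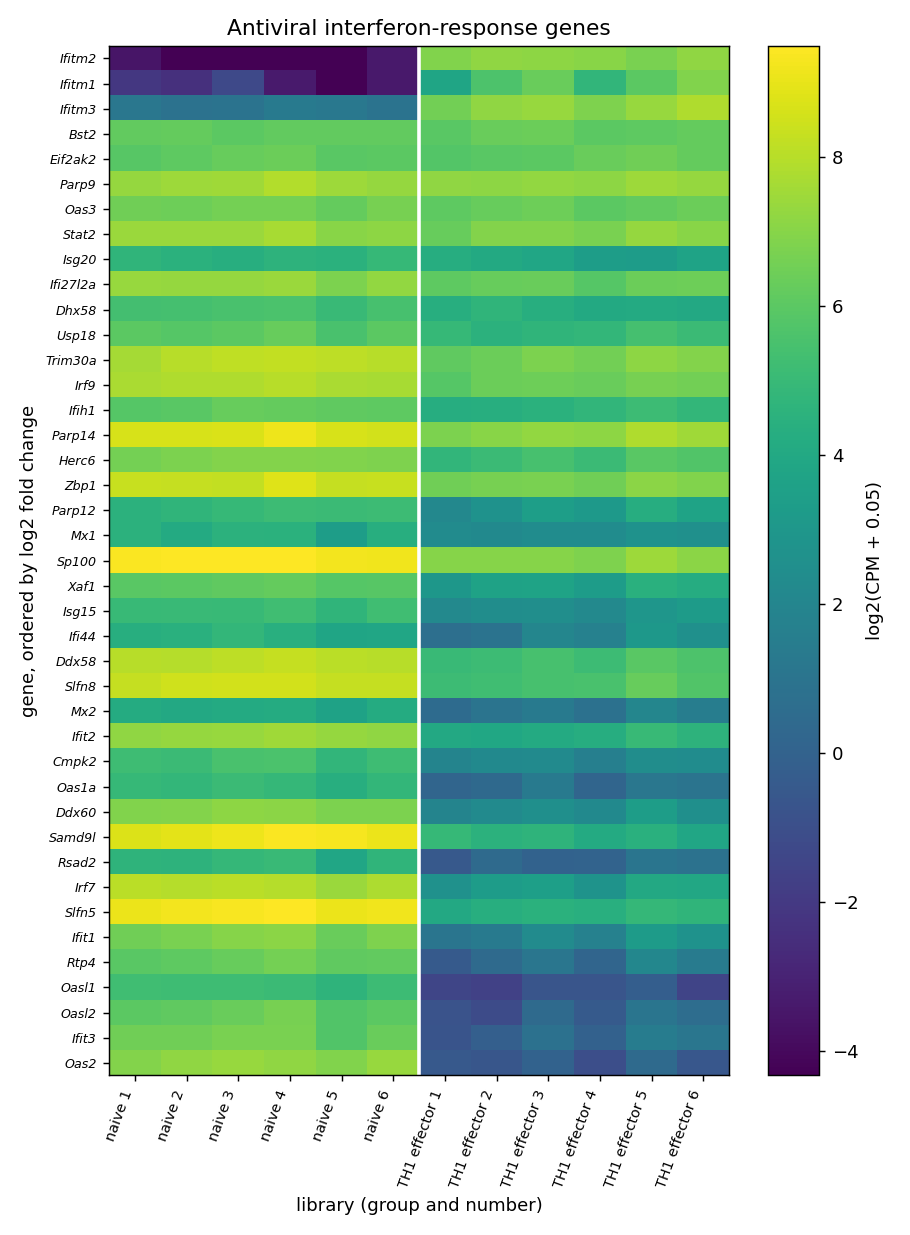
Level of 41 antiviral interferon-response genes in each of 6 naive and 6 TH1 effector libraries, as log2(CPM + 0.05) on the colour scale, with genes ordered by log2 fold change from Ifitm2 at the top to Oas2 at the bottom. The lower rows are bright in all naive and dark in all TH1 effector libraries, the top 3 rows, the Ifitm genes, show the reverse, and TH1 effector libraries 5 and 6 are a little brighter than the others in many of the lower rows.

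Promoter stretches of 4 of these genes are shown because members with matching letters moved in opposite directions. The 4 were picked by size of change among members whose stretch held a match, so its presence was set by the choice. The interferon-stimulated response element (ISRE) binds a complex that contains STAT2 and IRF9, and capitals mark matches of GAAA, any 2 bases and GAAA again on either strand. The stretches are again from RefSeq on GRCm38.p6, from 220 bases before to 30 after the start: Ifit3 chr19:34583309-34583558 and Ifit1 chr19:34640669-34640918 (plus strand), Ifitm2 chr7:140955932-140956181 and Ifitm3 chr7:141010715-141010964 (minus strand).
Ifit3: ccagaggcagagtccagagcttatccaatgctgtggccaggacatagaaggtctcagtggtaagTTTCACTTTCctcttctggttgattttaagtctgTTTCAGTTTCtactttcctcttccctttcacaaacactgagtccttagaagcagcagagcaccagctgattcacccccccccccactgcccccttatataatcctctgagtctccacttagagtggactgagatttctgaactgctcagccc
Ifit1: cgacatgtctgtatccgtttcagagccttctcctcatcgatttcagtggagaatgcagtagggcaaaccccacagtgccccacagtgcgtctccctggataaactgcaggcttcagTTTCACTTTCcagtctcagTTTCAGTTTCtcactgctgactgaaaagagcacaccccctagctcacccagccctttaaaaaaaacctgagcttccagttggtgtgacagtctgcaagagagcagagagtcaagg
Ifitm2: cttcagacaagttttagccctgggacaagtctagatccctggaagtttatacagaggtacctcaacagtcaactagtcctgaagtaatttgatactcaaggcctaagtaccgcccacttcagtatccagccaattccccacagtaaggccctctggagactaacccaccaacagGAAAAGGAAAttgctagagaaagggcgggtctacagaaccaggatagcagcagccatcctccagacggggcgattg
Ifitm3: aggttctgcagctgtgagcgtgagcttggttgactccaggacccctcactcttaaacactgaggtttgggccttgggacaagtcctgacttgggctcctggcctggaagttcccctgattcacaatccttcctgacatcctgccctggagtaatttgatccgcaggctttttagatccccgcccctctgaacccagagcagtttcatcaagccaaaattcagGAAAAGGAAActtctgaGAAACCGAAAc
Ifit3, Ifit1 and Ifitm3 held 2 matches each and Ifitm2 held 1. In the full windows the letters were found in 19 of 38 windows of the list (50%, from 31 of 41 genes matched), against 3.12% of windows of tested genes, 3.44% of all windows and 4.37% of windows of genes at least 2-fold lower.

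Targets of interferon gamma and genes of MHC class I were divided. Of 27 genes 17 fell, 8 rose and 2 did not pass, with a median of -0.43, and only 11 were lower in numbers 4 to 6 alone. Among the guanylate-binding proteins, which attack vacuoles of intracellular pathogens, Gbp2 rose from between 194 and 428 CPM (median 222) to between 512 and 1185 CPM (median 704), Gbp3 2.52-fold and Gbp5 3.47-fold, while Gbp9 fell 3.9-fold from between 318 and 564 CPM (median 391) to between 80.7 and 156 CPM (median 102). The genes of this family share sequence. The GTPase genes Tgtp2 and Irgm2 fell 2.44-fold and 2.2-fold. H2-K1, a class I heavy chain, fell 1.79-fold from 3696 to 2067 CPM, while B2m, its light chain, was at between 1862 and 2542 CPM (median 2016) and between 1668 and 2719 CPM (median 2075) and did not pass (adjusted p = 0.979).

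Most genes of the MHC class II list were higher in TH1 effector libraries, whereas Ctss and H2-Ob, both well expressed in naive libraries, were lower. Of 12 genes 10 rose and 2 fell, with a median of 2.85. As a share of counts the list took 0.0251% ± 0.00192 in naive and 0.028% ± 0.003 in TH1 effector libraries. H2-Ab1, a class II beta chain, had 0.553, 0.342, 0.463, 0.817, 0.432 and 0.188 CPM in naive and 79.8, 72.8, 61.2, 51.5, 28.1 and 33.8 CPM in TH1 effector libraries 1 to 6 (log2 fold change 6.86, SE 0.29, adjusted p = 8.34e-17). The groups did not overlap, and H2-Ab1 was lowest in TH1 effector libraries 5 and 6. Cd74, the invariant chain, rose from 2.08 to 45.2 CPM, H2-Aa from 0.431 to 5.77 CPM, H2-DMb1 and H2-DMb2, chains of the peptide editor, from 0.228 to 5.31 CPM and 0.261 to 5.76 CPM, and Ciita, the master regulator of the class, from 0.499 to 1.98 CPM with overlapping groups. H2-Ob fell from 29.1 to 8.68 CPM, and Ctss, the protease that trims the invariant chain, from 167.4 to 58.9 CPM. B cell markers (5.3 to 23.8 against 1.1 to 4.27 CPM summed over 9 genes) and dendritic cell markers (1.51 to 3.6 against 0.235 to 0.516 CPM over 8 genes) were higher in the same libraries, among them Ebf1 (0.0118 to 2.02 CPM) for B cells and Zbtb46 (0.0927 to 1.52 CPM) for dendritic cells, with Xcr1, Siglech, Cd209a and Clec10a at 0. By number, the B cell sums of TH1 effector libraries were 7.4, 13.5, 23.8, 5.45, 5.84 and 5.3 CPM, and the mean log2 CPM of the class II list was 3.44, 3.85, 4.09, 3.37, 3.78 and 3.71. Both were highest in numbers 3 and 2, while H2-Ab1 was highest in number 1. The part of such cells was not tested.

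Survival genes such as Bcl2 rose, and so did Pmaip1 and Bax, genes of cell death. Of 20 genes 13 rose, 4 fell and 3 did not pass, with a median of 0.85. Bcl2 had between 109.8 and 154 CPM (median 122) in naive and between 835 and 1086 CPM (median 985) in TH1 effector libraries (log2 fold change 2.92, adjusted p = 6.92e-17), without overlap, and its relatives Bcl2l1 (BCL-XL) and Bcl2l2 rose 5.58-fold and 8.13-fold. Mcl1, a short-lived survival protein, fell 2.28-fold from 735 to 323 CPM, Cflar, an inhibitor of caspase 8, 2.36-fold and Birc3 1.6-fold. Among genes that promote death, Pmaip1 (NOXA) rose 54-fold from 1.82 to 98.1 CPM and Bax 3.27-fold, while Bcl2l11 (BIM) did not pass (86.5 to 97 CPM, adjusted p = 0.537), but was higher in numbers 4 to 6 alone (0.032).

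The S100, annexin and galectin genes that accompany effector and memory T cells mostly rose. Of 25 genes 21 rose and 4 fell, with a median of 2.08, and their share of counts went from 0.237% ± 0.0143 to 0.855% ± 0.0725. S100a6, a calcium-binding protein, had between 0.144 and 0.427 CPM (median 0.269) in naive and between 71.9 and 203 CPM (median 129) in TH1 effector libraries (log2 fold change 8.84, SE 0.33, adjusted p = 1.96e-19), and Anxa2, a membrane-binding annexin, between 3.84 and 7.71 CPM (median 6.63) and between 493 and 746 CPM (median 605) (adjusted p = 3.62e-18). The groups did not overlap in either gene. Lgals3 (0.0883 to 44.8 CPM), Lgals1 (30.3 to 751 CPM), S100a4 (0.118 to 35.9 CPM), Vim, the intermediate filament vimentin (152 to 2428 CPM), and Emp1 (0.388 to 148 CPM) rose. Ly6c1 fell from 364 to 140.4 CPM and its near-identical neighbour Ly6c2 rose from 1.1 to 10.7 CPM, a pair whose reads may be shared, and Lgals9 and Emp3 fell 2.37-fold and 2.15-fold.

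The distance of TH1 effector from naive cells was then set beside that of naive cells stimulated for 6 hours, by testing TH1 effector against activated naive libraries in the same fit, which is the difference between their changes from the naive libraries they share. Of 12584 genes 10974 (87.2%) differed, 5767 (45.8%) higher and 5207 (41.4%) lower in TH1 effector libraries, and 3828 (30.4%) and 2281 (18.1%) at least 2-fold. The cell cycle lists were higher in TH1 effector libraries for 42 of 42 replication and 43 of 43 mitosis genes, with Mki67 at 0.449 CPM in activated naive against 937 CPM in TH1 effector libraries (log2 difference 11.22, adjusted p = 5.52e-15). S100, annexin and galectin genes were higher for 25 of 25, and genes on the list of lymph node homing and egress for 7 of 13. Il7r was at 1.67 ± 0.607 CPM in activated naive, 419.6 ± 87.9 in naive and 241.8 ± 34.4 CPM in TH1 effector libraries (log2 difference of TH1 effector from activated naive 7.20, adjusted p = 2.12e-18). Il7r was thus far lower at 6 hours than in either other group, while Tcf7 was at 229 ± 146 CPM in activated naive libraries and did not differ past the threshold from TH1 effector libraries (log2 difference 0.34, adjusted p = 0.195), though it was higher in TH1 effector libraries without number 6 (0.60, 0.0184).

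Immediate-early genes were lower in TH1 effector than in activated naive libraries for 23 of 29, amino acid transporters for 9 of 15, and serine, one-carbon and nucleotide genes for 19 of 26. Nr4a1 was at 9046 ± 2500 CPM in activated naive libraries (log2 difference -4.89, adjusted p = 1.27e-08), and Il2 at 16.7 ± 6.73 CPM (log2 difference -7.95, adjusted p = 4.4e-09). Among the lineage factors, Tbx21 had already reached 38.3 ± 5.41 CPM at 6 hours and stood higher in TH1 effector libraries (log2 difference 1.37, adjusted p = 5.16e-11). Ifng was at 0.481 ± 0.236 CPM (8.68, 9.81e-15) and Il12rb2 at 14.2 ± 1.92 CPM (5.95, 7.44e-18), against 0.112 ± 0.101 and 0.654 ± 0.227 CPM in naive libraries. Bcl6 was higher at 6 hours, at 234.6 ± 19.2 CPM, than in TH1 effector libraries (log2 difference -4.91, adjusted p = 7.05e-17). Of cytokine genes 15 were higher and 15 lower in TH1 effector than in activated naive libraries. For the antiviral genes the counts were 13 higher and 18 lower of 41, with Oas2 at 3.93, 4.72, 8.31, 7.44, 42.9 and 35 CPM in activated naive libraries 1 to 6, highest in numbers 5 and 6 and all below the naive range.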

How the data were processed

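RNA from sorted CD4 T cells was extracted with Trizol and made into libraries with a stranded TruSeq kit, per the labels' protocols. The deposited values are raw read counts per gene symbol, with 5 closing lines for unassigned reads that were left out of totals and tests (reads on no gene were 14.8% to 24.5% and ambiguous reads 0.825% to 1.25% of all reads in the tables). STAR, HTSeq, DESeq2 and mm10 are named in the submitters' processing notes. For their roles and versions, the annotation and the strand setting, the entry is: not given in the sources used here.

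Counts were fitted with edgeR 4.0.16 (R 4.3.3, limma 3.58.1) by the robust quasi-likelihood test over all 24 libraries, with the 4 groups and the title number as a block, after TMM scaling and edgeR's filter on low counts. The pairing by title number is the rule set for this comparison, so the block is in the main fit. The labels do not tie a number to an animal or culture. Libraries with the same number deviated together from their group means (correlations of 0.144 to 0.251, and 0.147 to 0.307 with the run removed). For each naive library the highest correlation with a TH1 effector library of another number was lower. It was 0.031 to 0.187, and -0.199 to 0.079 with the run removed. The margin was narrow in number 6 (0.13 against 0.144). P-values are Benjamini-Hochberg adjusted over 12584 genes, with 0.05 as threshold. SE is that of the 6 paired log2 CPM differences (prior count 0.5). For genes without counts in a group, folds are lower bounds set at 3 counts over its 6 libraries, and with 1 to 3 counts a ratio with an exact 95% interval is given, which covers counting error only. On simulated counts 68.7%, 83.6% and 90.9% of genes changed 1.5, 2 and 4-fold were recovered and 0.0888% of unchanged genes called. The simulation gave the 4 groups a common mean and left 12384 of 12584 genes unchanged. In the data 85.4% of genes were called, so these rates need not hold there. No 2 libraries of a group agreed within sampling noise.

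Members and gene lists were chosen with earlier results of these data known. The text names the 12 largest positive and negative log2 changes past the threshold (no overlap, minimum mean of 10 CPM in the higher group), the 3 largest each way per list with at least 5 CPM, the 5 largest gains and losses in CPM, a preset list of genes and markers of other cells. Other list members were named after their values were seen. Some genes that these rules name are not reported here, though they stay in the fit and in the counts over lists. Of 301 named genes found in GENCODE M21, 70 overlap an exon on the other strand (among them Il12rb2, Ccr9, Slc16a5, Dgka, Il21, Gata3, Bcl6, Cdkn1a, Gapdh, Irf7, Foxp3 and Lef1) and 29 on the same strand (among them Ifng, Stat4, Gbp9, Pkm, Lck, Top2a and Scd2), so that their counts are uncertain to that extent. Ifitm, Gbp, Ly6c and ribosomal protein genes and Tpi1 have near-identical copies. Alternatives were DESeq2 1.42.0, RLE or library size scaling, other filters, a test against 1.5-fold, no block, naive and TH1 effector libraries only, each run alone, and leaving out each number or numbers 5 and 6. For TH1 effector against activated naive libraries, those other than DESeq2, library size scaling and no block were chosen after seeing the data.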

Additional observations from a re-analysis of the deposited data

Results flagged for a closer look

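In 134 groups of 6 values (a named gene or the mean of a gene list, in naive or in TH1 effector libraries), the highest or lowest value was checked for its distance from the other 5. It stood apart in 9 of them, where its gap to the nearest value passed Dixon's critical share of the range at the 95% level. Chance flags about 1 in 20 groups.

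Among TH1 effector libraries, number 5 had the highest Pydc3, at 4.29 CPM against 1.82 CPM in the next library, the highest Tcf7, at 415 CPM against 277 CPM, and the lowest Eef2, at 6650 CPM against 7540 CPM. Number 4 had the highest Cd44, at 180 CPM against 142 CPM. The mean log2 CPM of mitosis genes was highest in number 1, at 6.66 against 6.37. Among naive libraries, number 1 had the highest Il17rb, at 18.8 CPM against 11.6 CPM, and the highest Klf2, at 597 CPM against 395 CPM. Naive library 4 had the highest mean log2 CPM of interferon gamma targets and MHC class I genes, at 8.68 against 8.25. Ddx5 was highest in naive library 5, at 3960 CPM against 3520 CPM. In Pydc3, Tcf7, Eef2, Cd44, Il17rb, Klf2 and Ddx5 and in the mitosis genes, the library that stood apart still lay on the same side of all libraries of the other group as its own group.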

How the results depend on the processing

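The TH1 effector against naive comparison was recomputed under 17 further settings, and that against activated naive libraries under the 16 that hold those libraries, most of them chosen for it after seeing the data. In the first, 47 of 307 named genes changed their call or direction in at least 1 of them. Over those settings the share of higher among called genes ran from 50.8% to 57% and the median log2 fold change of all genes from 0.0133 to 0.0888. A test against a 1.5-fold change left 2893 lower genes of 5101, and a minimum of 10 CPM in a group left 1916 genes at least 2-fold higher of 3174, with 9637 genes tested. Against activated naive libraries the same settings left 3215 lower of 5207 and 2418 at least 2-fold higher of 3828. No other count over all genes moved by over 1.5 times in either comparison. Of 10 genes named against activated naive libraries, Tcf7 alone changed its call (without number 6), and of the list counts given there that of higher antiviral genes moved by over 1.5 times (to 5 in numbers 4 to 6 alone). Without the replicate block, with the run as a term instead, 5613 genes were higher and 5073 lower, and of the calls named here Ccr7 (adjusted p = 0.0641) and Stat2 (0.0685) were lost. Leaving out each pair in turn gave 5370 to 5610 higher and 4943 to 5180 lower genes. DESeq2 gave 5761 and 4971. A sign with a call on either side turned for Gpr183 (log2 fold change -0.26 in numbers 1 to 3 alone), Nr4a3 (-0.13 in numbers 1 to 3 alone) and Egr2 (-0.48 in numbers 4 to 6 alone), and the cause was not tested. Of the list counts, that of lower interferon gamma and MHC class I genes went from 17 to 11 in numbers 4 to 6 alone and to 6 against a 1.5-fold change, where lower T cell receptor genes went from 26 to 16 and higher ribosomal protein genes from 67 to 27. Genes with few counts are limited by depth, since 3 counts over a group of 6 correspond to 0.0205 CPM in naive and 0.0177 CPM in TH1 effector libraries.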

Other observations

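The GIMAP genes, GTPases of lymphocyte survival that lie in 1 cluster on chromosome 6, divided. Of 8 members 5 fell and 3 rose, with a median of -0.36, beside 44.9% higher and 40.5% lower among all genes. Gimap8 fell 2.45-fold from 632 ± 42.4 to 257 ± 16.9 CPM and Gimap1 1.83-fold, without overlap between the groups. Gimap7 rose 7.11-fold from 25.2 ± 4.8 to 176 ± 10.3 CPM, Gimap4 rose 1.43-fold, and Gimap5 was higher with overlapping groups (log2 fold change 0.16, adjusted p = 0.011). The Gimap5 call was lost without number 3 or 4 and in numbers 4 to 6 alone. A test against a 1.5-fold change kept 1 of the higher and 3 of the lower genes.

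Enzymes of DNA methylation and of Polycomb repression moved both ways, 5 of 13 higher and 8 lower, beside 44.9% and 40.5% among all genes. Ezh2, the catalytic subunit of Polycomb complex PRC2 in dividing cells, rose 6.72-fold from 35.2 ± 3.81 to 235.6 ± 10.8 CPM. Dnmt1, which copies methylation at replication, rose 2.11-fold from 213 ± 7.79 to 449 ± 30.8 CPM, while Dnmt3a, which sets new methylation, fell 1.81-fold. Of the enzymes that oxidise methylcytosine, Tet1 fell 10.3-fold from 55.4 ± 2.18 to 5.6 ± 2.58 CPM and Tet3 3-fold, and Tet2 rose 1.38-fold. None of these 6 genes had overlapping groups. Among all genes 36.8% lay wholly above and 32.1% wholly below the naive range.

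Amino acid transporter genes rose for 9 of 15 and fell for 4, with a median of 0.54, beside 44.9% higher and 40.5% lower among all genes. Slc7a5 and Slc3a2, which form the large neutral amino acid carrier, rose 7.53-fold from 38.2 to 289 CPM and 2.18-fold from 87.2 to 190.3 CPM. Slc7a11, the cystine importer, rose from 0.0493 to 3.66 CPM. Slc43a2, a leucine carrier, fell 3.53-fold. Slc36a1 and Slc38a9, both lysosomal, fell 3.06-fold and 2.79-fold.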
